A study of Mus musculus with 11 samples.

Results

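The genes described here are 10 genes of spermatogonial differentiation and germ cell RNA binding: Kit, Stra8, Sohlh1, Sohlh2, Dmrtb1, Tex14, Taf4b, Dmrt1, Dazl and Dnd1. They were chosen by name, and each matched 1 of the 33188 genes in the count tables. Poly-A RNA of whole mouse testes at postnatal day 5 (P5) was sequenced from 4 genotypes on a C57Bl6/J background: 2 wild-type (WT) libraries, and 3 each of Dnmt3CKO/KO (Dnmt3C KO), of Nrf1KO/KO (Nrf1 cKO) and of the double mutant Dnmt3CKO/KO Nrf1KO/KO (dKO). Dnmt3C encodes a DNA methyltransferase of the male germline and was lost in all cells of Dnmt3C KO and dKO mice. Nrf1 encodes a transcription factor whose binding to DNA is blocked by methylation, and in Nrf1 cKO and dKO mice 1 floxed allele was removed by a Ddx4-Cre transgene active in germ cells, the other allele being deleted throughout, so that the somatic cells kept a copy. Littermates served as controls where possible, and the labels name the tissue as testes while the titles speak of germ cells.

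Spermatogonia leave the undifferentiated state when retinoic acid acts on them. The receptor tyrosine kinase KIT and the retinoic acid target STRA8 mark that step, the paired bHLH factors SOHLH1 and SOHLH2 and the factor DMRTB1 (also called DMRT6) act in the differentiating cells, and DMRT1 holds back entry into meiosis. TEX14 keeps the intercellular bridges between sister cells open, and TAF4B is a germ cell subunit of the general transcription factor TFIID. DAZL and DND1 bind germ cell mRNAs from the embryo onward, at undifferentiated as well as differentiating stages, and here they stand for germ cells in general. Outside the germline KIT is also known from Leydig cells and mast cells, and DMRT1 from Sertoli cells.

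Library totals ran from 26063590 to 39365841 counts with a median of 33862160, and counts were scaled to library size (CPM, with TMM factors). The lowest count of any of the 10 genes in a library was 7, for Dmrtb1 in Nrf1 cKO replicate 2. Nrf1 itself was between 45.0 and 58.0 CPM in the Nrf1-intact libraries and between 52.2 and 60.8 CPM in the Nrf1-deleted ones, so this transcript, also made by somatic cells that kept a copy of the gene, did not check the Nrf1 labels. Dnmt3c was at 4.16 and 4.87 CPM in WT and between 3.86 and 4.87 CPM in Nrf1 cKO, but also between 3.02 and 4.51 CPM in Dnmt3C KO and between 3.55 and 4.94 CPM in dKO, so its level did not separate the libraries labelled as lacking it, and the Dnmt3C labels were not checked by it either. Sertoli markers summed to between 3260 and 6532 CPM per library, so somatic RNA was abundant in every library. Nrf1 cKO replicate 3 stood apart, with the highest Sertoli sum, and with Sox9 at 194 CPM and Cldn11 at 157 CPM against at most 115 and 67.0 CPM elsewhere. Clu, at 4079 CPM, made up most of that sum. Wt1, Clu, Dhh, Fshr and Inhbb were also highest there. Amh (546.5 CPM), Gata4 (500.4 CPM) and Sox8 (134.6 CPM) were not, reaching 824.8 CPM in dKO replicate 2, 521.2 CPM in Nrf1 cKO replicate 1 and 136.2 CPM in dKO replicate 2. Dnmt3C KO replicate 1 held the highest level of 9 of the 10 genes.

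**Figure D1:**
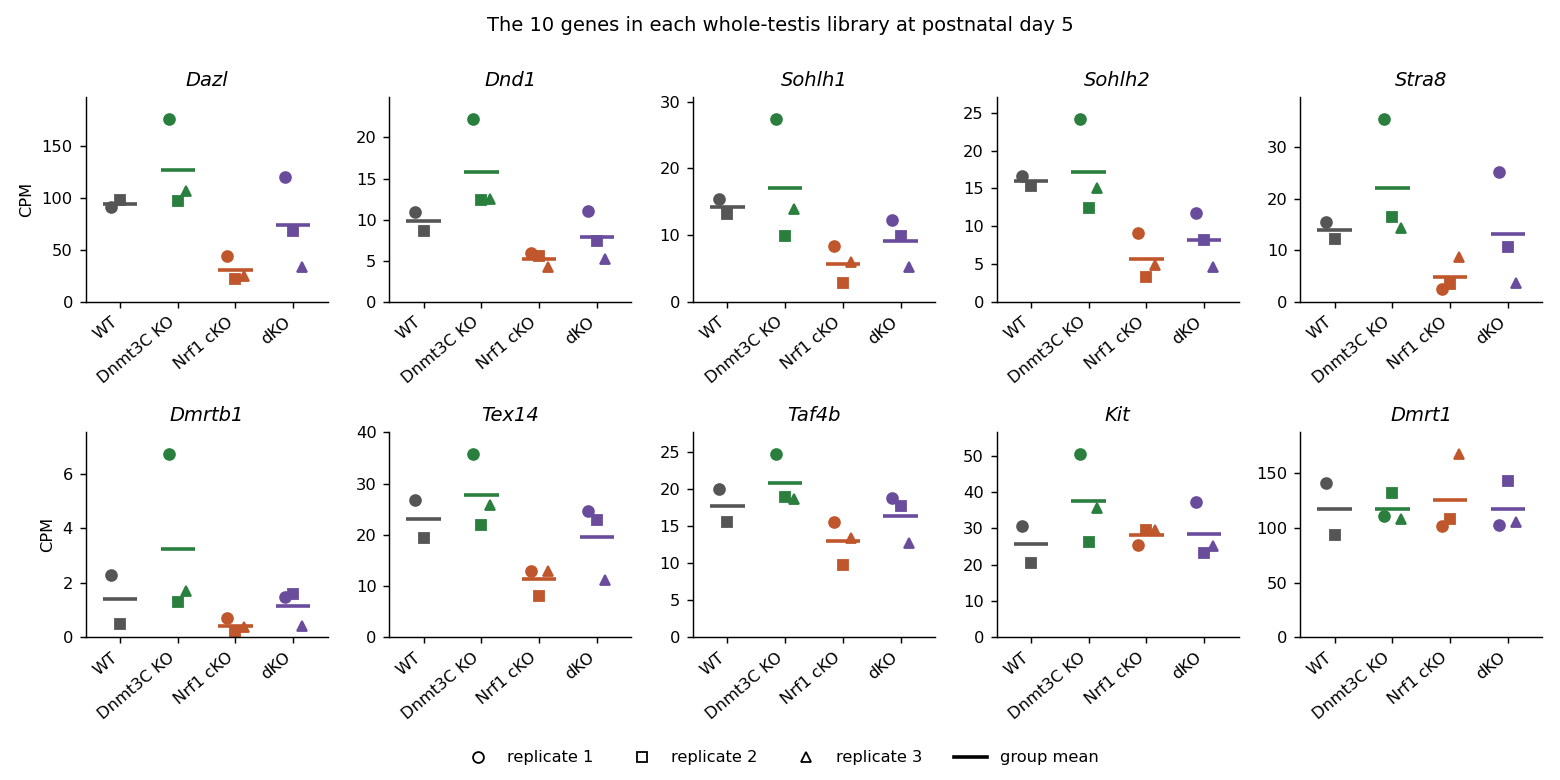
CPM of each of the 10 genes (y axis, linear from 0) in the 11 libraries, grouped by genotype on the x axis, with a symbol for each replicate and a bar at each group mean. Dazl was at 21.4 to 44.2 CPM in Nrf1 cKO against 91.3 and 97.4 CPM in WT, whereas the genotypes overlapped for Kit and Dmrt1.

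All 10 are protein-coding. On GRCm38 the annotation places Sohlh1 at chr2:25842995-25847248 (minus strand), Sohlh2 at chr3:55182028-55209957 (plus strand), Dmrtb1 at chr4:107676290-107684230 (minus strand), Kit at chr5:75574916-75656722 (plus strand), Stra8 at chr6:34920163-34939344 (plus strand), Tex14 at chr11:87405065-87555823 (plus strand), Dazl at chr17:50279395-50293636 (minus strand) and Dmrt1 at chr19:25505618-25604329 (plus strand).

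Promoter windows of 300 bases, from 250 before to 50 after an annotated start site (RefSeq, GRCm38.p6), were found for 7 of the 10 genes; Dnd1, Taf4b and Dmrt1 had no entry in the table used. The 10-base consensus motif of NRF1 and a relaxed form of it with any base at the fifth place, searched on both strands, were in the windows of 0 of the 7 genes, against 0.971% and 4.60% of all 32851 windows. Shorter motifs were searched after the windows had been read: GCGCATGC, the first 8 bases of the NRF1 motif, lay 133 bases before the Dazl start and is in 2.71% of windows, and TGCGCA lay 121 bases before it and is in 7.76%. The E-box CACGTG, the kind of site that bHLH factors bind, occurred at 3 places in the Sohlh1 window and in 7.15% of all windows, and in none of the other 6 genes with windows. Among 12 general germ cell genes with a window, 5 (Tdrd1, Tdrd5, Mov10l1, Asz1 and Stk31) held the relaxed motif, 3 GCGCATGC (Tdrd9, Mov10l1 and Stk31), 5 TGCGCA (Tdrd1, Tdrd5, Gtsf1, Asz1 and Stk31) and 8 CACGTG (Ddx4, Mael, Tdrd1, Tdrd9, Mov10l1, Stk31, Rbm46 and Taf7l). The windows of Dazl, Sohlh1 and Sohlh2 are printed because results on Nrf1 deletion are given for these genes, and that of Asz1, a piRNA pathway gene, as one that holds the relaxed motif. Capitals mark GCGCATGC and TGCGCA in Dazl (chr17:50293571-50293870, minus strand), CACGTG in Sohlh1 (chr2:25847199-25847498, minus strand) and the relaxed NRF1 motif in Asz1 (chr6:18109012-18109311, minus strand). Sohlh2 (chr3:55181794-55182093, plus strand) held none of these motifs. The matches describe the windows and say nothing on binding in these testes.
Dazl: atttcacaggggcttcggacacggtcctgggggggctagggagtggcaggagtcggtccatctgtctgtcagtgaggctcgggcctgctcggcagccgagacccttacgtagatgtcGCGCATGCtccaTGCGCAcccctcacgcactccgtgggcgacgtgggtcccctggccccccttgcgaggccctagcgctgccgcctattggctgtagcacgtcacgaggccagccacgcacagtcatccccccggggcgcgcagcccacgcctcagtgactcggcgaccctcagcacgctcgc
Sohlh1: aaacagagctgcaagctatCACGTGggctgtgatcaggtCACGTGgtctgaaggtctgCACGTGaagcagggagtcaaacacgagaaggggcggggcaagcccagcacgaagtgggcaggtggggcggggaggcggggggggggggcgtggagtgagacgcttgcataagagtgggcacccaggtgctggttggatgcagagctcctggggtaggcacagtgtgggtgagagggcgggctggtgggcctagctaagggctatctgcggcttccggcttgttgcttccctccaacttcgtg
Sohlh2: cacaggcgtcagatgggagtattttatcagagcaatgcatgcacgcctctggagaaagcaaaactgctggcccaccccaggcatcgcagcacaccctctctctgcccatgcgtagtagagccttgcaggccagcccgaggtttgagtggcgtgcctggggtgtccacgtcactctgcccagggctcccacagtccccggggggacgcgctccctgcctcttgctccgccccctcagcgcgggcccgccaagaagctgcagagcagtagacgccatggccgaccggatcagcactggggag
Asz1: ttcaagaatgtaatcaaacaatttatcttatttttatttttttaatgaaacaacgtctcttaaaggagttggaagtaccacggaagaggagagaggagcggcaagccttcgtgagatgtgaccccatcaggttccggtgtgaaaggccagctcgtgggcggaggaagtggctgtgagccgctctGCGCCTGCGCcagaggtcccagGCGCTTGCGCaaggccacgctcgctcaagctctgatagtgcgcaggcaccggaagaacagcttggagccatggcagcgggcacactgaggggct

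Per kilobase of merged exon, the mean level in WT was highest for Dmrt1, at 45.2 ± 13.1 CPM per kb (SD, n = 2), followed by Dazl at 24.7 ± 1.14, Sohlh1 at 11.1 ± 1.27, Stra8 at 7.69 ± 1.28 and Sohlh2 at 6.77 ± 0.405. Tex14 (4.60 ± 1.06), Dnd1 (4.06 ± 0.667), Taf4b (3.44 ± 0.606) and Kit (2.87 ± 0.816) each overlapped the next in that order, as did Stra8 and Sohlh2, whereas the other neighbours did not overlap and Dmrtb1 was lowest at 0.666 ± 0.616. In Nrf1 cKO the order changed below Dmrt1 (48.5 ± 14.03) and Dazl (7.89 ± 3.22): Kit, at 3.16 ± 0.278 CPM per kb (SD, n = 3), was above the mean of Stra8 (2.71 ± 1.87) and of Sohlh2 (2.41 ± 1.28), though the 3 ranges overlapped. These levels assume that the whole annotated exon length is transcribed.

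Deletion of Nrf1 in germ cells was accompanied by lower levels of the general germ cell genes and of most differentiation genes, while Dmrt1 was at about the same level and Kit at a log2 fold change of -0.16. Over both Dnmt3C backgrounds (6 Nrf1-deleted against 5 Nrf1-intact libraries), the fold changes of 9 of the 10 genes were below 0, with a median of -1.02 on the log2 scale against 0.00 over the 22594 genes and transposon subfamilies tested. No gene of the 10 passed edgeR's quasi-likelihood test at an adjusted p of 0.01, a threshold that 0.00443% of all features passed. At an unadjusted p under 0.05, 8 of the 10 were lower and 0 higher, where 4.32% of all features were lower and 3.55% higher. Leaving out WT replicate 1 or Dnmt3C KO replicate 1 turned the 8 into 5. DESeq2 put 2 of them, Sohlh2 and Dnd1, past adjusted p 0.01 (0.164% of all features).

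Dazl, the germ cell translational regulator, was measured at 91.3 and 97.4 CPM in WT and at 176, 96.4 and 107 CPM in Dnmt3C KO. In Nrf1 cKO it was at 44.2, 21.4 and 24.8 CPM, and in dKO at 120, 68.1 and 33.3 CPM. All 3 Nrf1 cKO libraries thus lay below both WT libraries, whereas dKO replicate 1 lay above WT. The WT mean of 94.4 ± 4.37 CPM (SD, n = 2) compared with 30.2 ± 12.3 CPM (SD, n = 3) in Nrf1 cKO, and the log2 fold change was -1.65 (SE 0.28, edgeR adjusted p = 0.395, unadjusted p = 0.000141). Dazl was the one gene of the 10 that DESeq2 called in this comparison (adjusted p = 0.000381), and edgeR called it when Nrf1 cKO replicate 1 was left out (log2 fold change -2.04, adjusted p = 0.00356). Its adjusted p ranged from 1.11e-10 to 1.00 over the alternatives.

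Dnd1, which protects germ cell mRNAs from decay, measured 10.9 and 8.66 CPM in WT. Dnmt3C KO libraries held 22.3, 12.4 and 12.6 CPM, and Nrf1 cKO libraries 5.98, 5.55 and 4.26 CPM. In dKO it was at 11.03, 7.45 and 5.23 CPM. Every Nrf1 cKO library was below both WT libraries, and every dKO library was below every Dnmt3C KO library. With Nrf1 deletion over both backgrounds its log2 fold change was -0.95 (SE 0.21, edgeR adjusted p = 0.288). That of Dazl was -1.17 (SE 0.30, edgeR adjusted p = 0.344), and in Nrf1 cKO over WT Dazl was at -1.65 and Dnd1 at -0.90.

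Sohlh2 split the libraries by Nrf1 state. WT libraries were at 16.7 and 15.3 CPM and Dnmt3C KO libraries at 24.2, 12.4 and 15.1 CPM, whereas Nrf1 cKO libraries were at 9.08, 3.24 and 4.80 CPM and dKO libraries at 11.8, 8.19 and 4.65 CPM. It was the one gene of the 10 with all 6 Nrf1-deleted libraries below all 5 Nrf1-intact ones, a pattern held by 0.451% of all features. Its log2 fold change over both backgrounds was -1.25 (SE 0.28, edgeR adjusted p = 0.288), -1.495 in Nrf1 cKO over WT and -1.07 in dKO over Dnmt3C KO.

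Sohlh1, the partner of SOHLH2, followed nearly the same course: 15.4 and 13.1 CPM in WT, 27.5, 9.92 and 13.9 CPM in Dnmt3C KO, 8.38, 2.80 and 5.96 CPM in Nrf1 cKO, and 12.3, 9.89 and 5.17 CPM in dKO. The Nrf1 cKO libraries again lay below WT, but dKO and Dnmt3C KO overlapped. The log2 fold change with Nrf1 deletion was -1.09 (SE 0.30, edgeR adjusted p = 0.392). By the distance between centred log2 CPM profiles over the 11 libraries, Sohlh2 was the nearest of 21655 genes to Sohlh1, at a root mean square difference of 0.20.

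Stra8, the retinoic acid target, measured 15.5 and 12.2 CPM in WT, and 35.5, 16.5 and 14.2 CPM in the Dnmt3C KO libraries. Those of Nrf1 cKO held 2.52, 3.37 and 8.75 CPM and those of dKO 25.1, 10.6 and 3.55 CPM. Nrf1 cKO lay below WT without overlap, while the dKO libraries spread from below the lowest WT library to above the highest. The log2 fold change was -1.09 over both backgrounds (SE 0.43, edgeR adjusted p = 0.589) and -1.53 in Nrf1 cKO over WT. The latter became -2.24 without Nrf1 cKO replicate 3, the library with the highest Sertoli sum. In dKO over Dnmt3C KO it was -0.75 (SE 0.57, edgeR adjusted p = 0.738), but -0.23 without Dnmt3C KO replicate 1, -0.30 without dKO replicate 3 and -1.66 without dKO replicate 1.

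Dmrtb1 was the scarcest of the genes, at 2.29 and 0.481 CPM in WT, 6.72, 1.30 and 1.68 CPM in Dnmt3C KO, 0.698, 0.190 and 0.387 CPM in Nrf1 cKO and 1.46, 1.58 and 0.428 CPM in dKO. The WT libraries differed from each other by more than the group means of WT and dKO did. Its log2 fold change with Nrf1 deletion was the most negative of the 10, -1.57, with the widest error (SE 0.52, edgeR adjusted p = 0.495), and that in Nrf1 cKO over WT went from -1.73 to -0.16 without WT replicate 1. The value of -1.57 became -1.02 when Dnmt3C KO replicate 1 was left out.

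Tex14, of the intercellular bridge, was at 26.8 and 19.3 CPM in WT and 35.8, 21.9 and 25.9 CPM in Dnmt3C KO. It was at 12.9, 8.06 and 12.9 CPM in Nrf1 cKO, below WT without overlap, and at 24.7, 22.9 and 11.2 CPM in dKO, where 2 libraries were within the WT range. The log2 fold change was -0.74 with Nrf1 deletion (SE 0.22, edgeR adjusted p = 0.414) and -1.04 in Nrf1 cKO over WT. Taf4b moved less: 19.9 and 15.5 CPM in WT, 24.7, 18.9 and 18.6 CPM in Dnmt3C KO, 15.6, 9.74 and 13.4 CPM in Nrf1 cKO, and 18.8, 17.7 and 12.7 CPM in dKO. Nrf1 cKO replicate 1 was just above WT replicate 2, so the ranges overlapped, and the log2 fold change over both backgrounds was -0.39 (SE 0.15, edgeR adjusted p = 0.582). In Nrf1 cKO over WT Taf4b was at -0.47, and at -0.25 without WT replicate 1 or -0.30 without Nrf1 cKO replicate 2.

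Kit, the receptor of the differentiating spermatogonium, was at 30.7 and 20.4 CPM in WT, 50.4, 26.3 and 35.6 CPM in Dnmt3C KO, 25.3, 29.5 and 29.6 CPM in Nrf1 cKO and 37.2, 23.2 and 25.2 CPM in dKO. All Nrf1 cKO libraries fell within the WT range. The log2 fold change was -0.16 over both backgrounds (SE 0.19, edgeR adjusted p = 0.831), 0.12 in Nrf1 cKO over WT and -0.39 in dKO over Dnmt3C KO. Over both backgrounds it was 0.00331 without Dnmt3C KO replicate 1, and the Nrf1 cKO value was -0.13 without WT replicate 2.

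Dmrt1 was at 141 and 93.1 CPM in WT, 111, 131 and 108 CPM in Dnmt3C KO, 101, 109 and 168 CPM in Nrf1 cKO and 103, 142 and 105 CPM in dKO. The genotypes overlapped throughout, and the log2 fold change with Nrf1 deletion was 0.04 (SE 0.15, edgeR adjusted p = 0.952). Its highest value was in Nrf1 cKO replicate 3, and without that library the fold change was -0.0667.

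**Figure D2:**
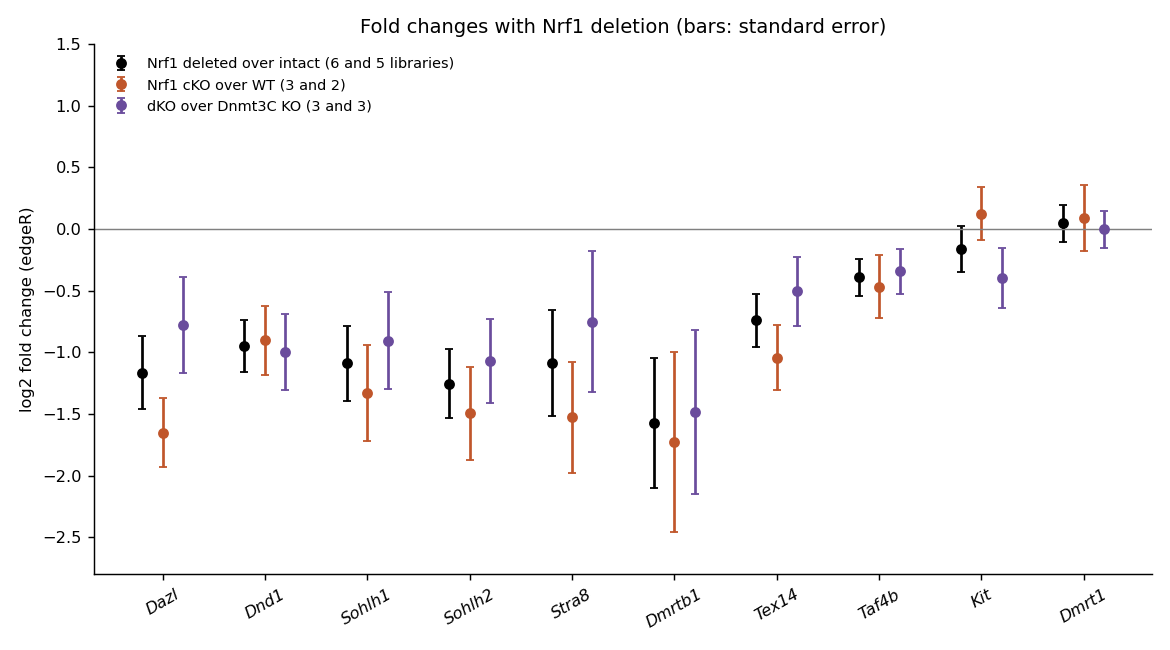
Log2 fold changes from edgeR (y axis) with their standard errors (bars) for the 10 genes (x axis), over both Dnmt3C backgrounds and in each background alone. Dazl, Dnd1, Sohlh1, Sohlh2, Stra8 and Dmrtb1 lie between -0.75 and -1.73, Dmrt1 lies near 0, and Kit is at -0.16 over both backgrounds, 0.12 in Nrf1 cKO over WT and -0.39 in dKO over Dnmt3C KO.

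Within the WT background, Nrf1 cKO over WT, 7 of the 10 genes were lower at an unadjusted p under 0.05 (4.22% of all features lower) and none passed an adjusted p of 0.01 (0.00% of all features). DESeq2 called 1, Dazl (0.117% of all features), and edgeR with no filter on low counts called 5 (0.419%). Without WT replicate 1 the 7 became 3. All 3 Nrf1 cKO libraries were below both WT libraries for 6 genes (Stra8, Sohlh1, Sohlh2, Dazl, Dnd1 and Tex14), a pattern that 12.0% of all features showed. In the Dnmt3C KO background, dKO over Dnmt3C KO, all 10 fold changes were below 0, as for 47.4% of all features, with Dmrt1 at -0.00373. There 3 genes were lower at an unadjusted p under 0.05 (4.08% of all features): Sohlh1 at -0.91, Sohlh2 at -1.07 and Dnd1 at -0.995. The log2 fold changes of Dazl, Dmrtb1, Tex14 and Taf4b there were -0.78, -1.48, -0.51 and -0.34, and none of the 10 passed the adjusted threshold (0.00% of all features). With Dnmt3C KO replicate 1 left out the 3 became 0, with its replicate 2 left out 5, and with dKO replicate 1 left out 8. Without Dnmt3C KO replicate 1, which was the highest library for 9 of the 10 genes, Dazl was at -0.46, Sohlh1 at -0.38, Dnd1 at -0.66, Dmrtb1 at -0.36, Tex14 at -0.28, Taf4b at -0.20 and Kit at -0.12. Omitting dKO replicate 1 put Dazl at -1.34 and Kit at -0.65, and omitting dKO replicate 3 put Dazl at -0.43, Tex14 at -0.23 and Taf4b at -0.19. Libraries did not overlap for Sohlh2 and Dnd1, as for 6.79% of all features. In the same comparison 2 of 6 Leydig, 1 of 5 macrophage and 1 of 5 peritubular markers were lower at an unadjusted p under 0.05. Their medians were -0.20, -0.38 and -0.30. The 10 Sertoli markers had a median of 0.35 with 3 higher (3.10% of all features), and the 5 endothelial markers -0.11 with 0 higher or lower. The part of these cells in the values was not tested.

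Loss of Dnmt3C went with higher rather than lower values. Over both Nrf1 backgrounds, 5 of the 10 genes were higher at an unadjusted p under 0.05 where 1.90% of all features were: Dmrtb1 (log2 fold change 1.33), Stra8 (1.08), Dazl (0.89), Dnd1 (0.63) and Tex14 (0.56). None passed an adjusted p of 0.01 (0.00443% of all features did), and the adjusted p of all 10 genes in that edgeR fit was 1.00. The 5 became 2 when Dnmt3C KO replicate 1, Nrf1 cKO replicate 2 or dKO replicate 1 was left out, and 3 when dKO replicate 2 was. Stra8 was at 0.61 and Dazl at 0.58 without dKO replicate 1, and Dmrtb1 at 0.86 without Dnmt3C KO replicate 1. In Dnmt3C KO over WT all 10 fold changes were at or above 0, and Dnd1 (0.68, unadjusted p = 0.0288, edgeR adjusted p = 0.893) was the one gene at an unadjusted p under 0.05, with 2.56% of all features higher at that level. That count of 1 was 0 without Dnmt3C KO replicate 1 (Dnd1 at 0.36) or WT replicate 2, 3 without WT replicate 1, 4 without Dnmt3C KO replicate 2, 5 without its replicate 3 or with no filter on low counts, and 3 with DESeq2. Dnd1 was also the one gene whose 3 Dnmt3C KO libraries all exceeded WT, as did 9.73% of features. Kit was 0.55 and Stra8 0.67 higher on the log2 scale in that comparison. With any 1 library left out they ran from 0.29 to 0.88 and from 0.16 to 0.90, both lowest without Dnmt3C KO replicate 1. Some markers of other cells were also above 0 there, and some were not. The Leydig gene Insl3 was at 0.97 (unadjusted p = 0.000253, edgeR adjusted p = 0.302) and Lhcgr at 0.50. Star averaged 107 CPM in Dnmt3C KO and 132 CPM in WT. The 6 Leydig markers had a median of 0.24, with 1 below 0 and 2 higher at an unadjusted p under 0.05. The 5 macrophage markers were at 0.46 with 2 higher, and the 4 mast cell markers at 0.38 with 0 higher. Medians were -0.07 for the 10 Sertoli, -0.03 for the 5 endothelial and 0.20 for the 5 peritubular markers, with 0 higher in each. Their part in the Kit value was not tested.

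In dKO over Nrf1 cKO, 3 genes were higher at an unadjusted p under 0.05 (1.94% of all features): Dmrtb1 (1.443), Dazl (1.29) and Tex14 (0.80), with Stra8 at 1.439 (unadjusted p = 0.0546). The 3 became 0 without dKO replicate 1, where Stra8 was at 0.54 and Dazl at 0.74, 1 without dKO replicate 2 or Nrf1 cKO replicate 2, 5 without Nrf1 cKO replicate 1 and 6 without dKO replicate 3. The dKO and Nrf1 cKO libraries overlapped for each of the 10 genes, where 4.46% of all features were higher without overlap. The 5 endothelial markers had a median of -0.71 there, all below 0, with 1 lower at an unadjusted p under 0.05 (0.868% of all features). In Nrf1 cKO over WT that median was 0.51, with 2 higher (1.53%). The 10 Sertoli markers were all below 0 in dKO over Nrf1 cKO, with a median of -0.15 and 0 lower. The part of these cells was not tested. In dKO over WT, 9 of the 10 fold changes were below 0, and Sohlh2 (-0.96, edgeR adjusted p = 1.00) was the one gene at an unadjusted p under 0.05, against 1.19% of all features lower; that count was 0 without WT replicate 1 and 3 without dKO replicate 1. Sohlh1 and Sohlh2 had all 3 dKO libraries below WT, as did 6.93% of features. Neither dKO over Nrf1 cKO nor dKO over WT had a feature past an adjusted p of 0.01 (0.00%). The effects of Nrf1 deletion in the 2 Dnmt3C backgrounds were compared as an interaction on all 11 libraries. It was below an unadjusted p of 0.05 for 0 of the 10 genes in edgeR (5.55% of all features). That count was 2 without dKO replicate 3 (Dazl at 1.22 and Tex14 at 0.81), and 1 without Nrf1 cKO replicate 1 (Dazl), Dnmt3C KO replicate 2 (Kit) or dKO replicate 1 (Kit). With all libraries the estimates were 0.87 for Dazl (SE 0.57, edgeR adjusted p = 0.907) and -0.53 for Kit (SE 0.36, edgeR adjusted p = 0.907). Without dKO replicate 1 the Dazl estimate was 0.31, and that of Kit was -0.27 without Dnmt3C KO replicate 1, -0.28 without WT replicate 2 and -0.86 without WT replicate 1. A test of any difference over the 4 genotypes had 8 of the 10 genes at an unadjusted p under 0.05 (6.06% of all features), the smallest adjusted p being 0.319 for Dnd1 in edgeR, with 0.00% of features past 0.01; DESeq2's likelihood ratio test called 1 of the 10 and 0.562% of all features. These comparisons share libraries, so their values are given side by side and are not independent of each other.

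To set the differentiation genes beside the germ cells as a whole, the mean log2 CPM of Dazl and Dnd1 was subtracted from that of each differentiation gene in every library. Fewer germ cells and less RNA per germ cell cannot be told apart in bulk RNA. Split by Nrf1 state alone, the means of Sohlh1 and Sohlh2 on this scale were close. Sohlh1 averaged -1.31 ± 0.30 (SD, n = 5) in Nrf1-intact and -1.30 ± 0.42 (SD, n = 6) in Nrf1-deleted libraries, and Sohlh2 -1.19 ± 0.26 and -1.38 ± 0.34. Tex14 averaged -0.56 ± 0.21 and -0.20 ± 0.32, and Dmrtb1 -4.39 ± 0.99 and -4.67 ± 0.59. In all of these the ranges of Nrf1-intact and Nrf1-deleted libraries overlapped. By genotype, Sohlh2 was at -0.92 in both WT libraries, from -1.48 to -1.27 in Dnmt3C KO and from -1.62 to -1.46 in dKO. Sohlh1 was at -1.03 and -1.15 in WT, from -1.80 to -1.19 in Dnmt3C KO and from -1.56 to -1.19 in dKO. Both genes thus lay below WT in Dnmt3C KO and dKO, while their Nrf1 cKO ranges took in WT. The share of all features with this pattern was not counted.

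A gene whose CPM stays the same also moves up on this scale where Dazl and Dnd1 are lower. Relative to Dazl and Dnd1, Kit was at -0.04 and -0.51 in WT and at -0.31, -0.39 and -0.04 in Dnmt3C KO, whereas Nrf1 cKO libraries were at 0.63, 1.43 and 1.52 and dKO libraries at 0.03, 0.04 and 0.93. All 6 Nrf1-deleted libraries were above all 5 Nrf1-intact ones, the nearest being at 0.03 and -0.04, and 2.37% of all features separated in this way on the same scale. In the same sense Taf4b averaged -0.95 ± 0.25 (SD, n = 5) in Nrf1-intact and -0.20 ± 0.44 (SD, n = 6) in Nrf1-deleted libraries, and Dmrt1 1.63 ± 0.50 and 2.85 ± 0.84, each with overlap through dKO replicate 1. When edgeR's library sizes were set to equal summed Dazl and Dnd1 counts, the log2 fold change in Nrf1 cKO over WT was 1.82 for Kit (adjusted p = 0.00191) and 1.80 for Dmrt1 (adjusted p = 0.0019), but 60.0% of all features passed the adjusted threshold and their median was 1.67 on that scale, so Kit and Dmrt1 lay close to the middle of all genes. With Nrf1 deletion over both backgrounds Kit was at 1.15 on that scaling, below the median of all features of 1.32, and 79.6% of all features were higher at an unadjusted p under 0.05. Markers of other cells that hold Kit or Dmrt1 were read on the CPM scale. In Nrf1 cKO over WT the 6 Leydig markers had a median log2 fold change of 0.29, the 4 mast cell markers of 0.64 and the 10 Sertoli markers of 0.48. At an unadjusted p under 0.05, 1, 0 and 2 of them were higher, beside 1.53% of all features. With Nrf1 deletion over both backgrounds the medians were 0.04, 0.26 and 0.38, with 0, 0 and 4 higher beside 3.55% of all features. How much of the Kit and Dmrt1 signal came from those cells was not tested.

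**Figure D3:**
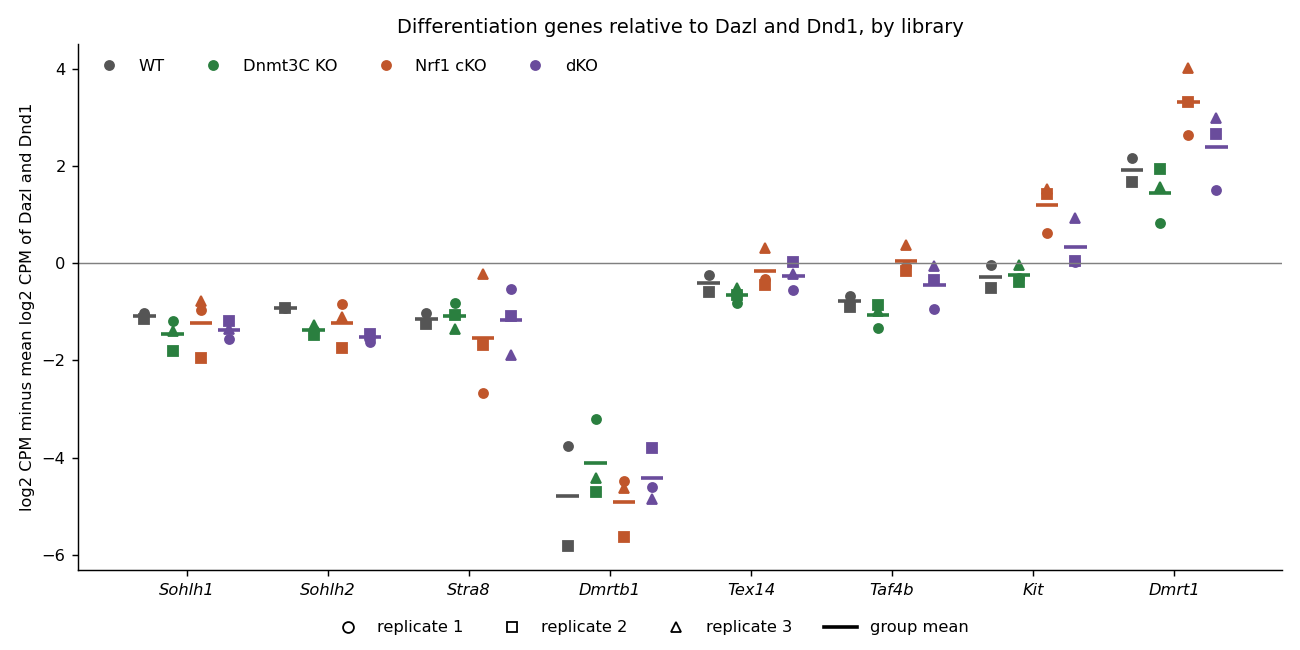
Log2 CPM of each differentiation gene minus the mean log2 CPM of Dazl and Dnd1 (y axis) in the 11 libraries, coloured by genotype, with bars at group means. Kit is above 0 in all 6 Nrf1-deleted libraries and below 0 in all 5 others (2.37% of all features are higher without overlap on this scale), and Stra8 in Nrf1 cKO spreads from -2.68 to -0.23.

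Stra8 varied most among the Nrf1 cKO libraries once set beside Dazl. The ratio of Stra8 to Dazl CPM was 0.170 and 0.126 in WT, 0.202, 0.171 and 0.133 in Dnmt3C KO and 0.209, 0.156 and 0.107 in dKO, but 0.0570, 0.158 and 0.353 in Nrf1 cKO. Nrf1 cKO replicate 1 had the highest Dazl and the lowest Stra8 of its group, and replicate 3, with the highest Sertoli sum, had the highest Stra8. The Nrf1 cKO spread took in every other library. Dazl over Dnd1 was 8.35 and 11.3 in WT, and the Dnmt3C KO libraries lay between 7.79 and 8.51. It was 7.40, 3.86 and 5.83 in Nrf1 cKO, all below WT, while dKO libraries had 10.8, 9.14 and 6.36.

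**Figure D4:**
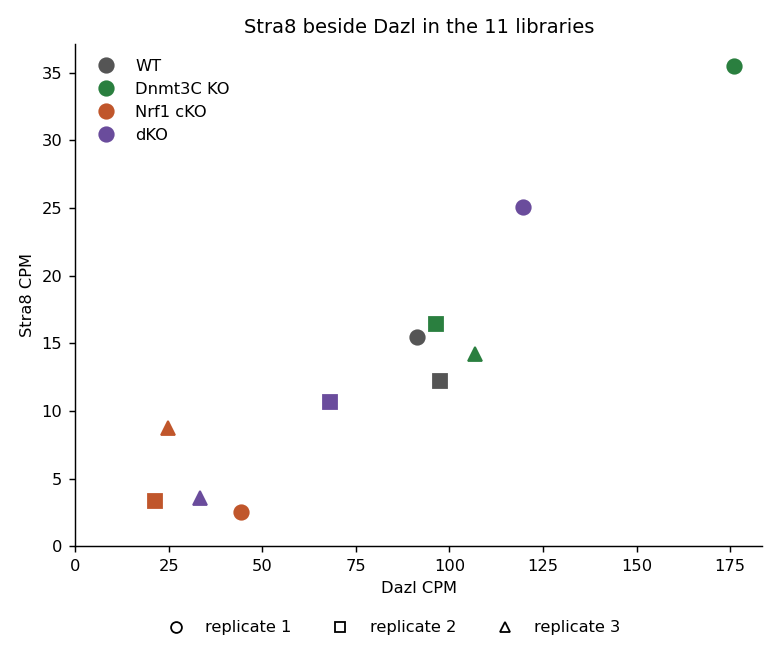
Stra8 CPM (y axis) against Dazl CPM (x axis) in the 11 libraries, coloured by genotype, with a symbol for each replicate. Nrf1 cKO replicate 1 (44.2 and 2.52 CPM) and replicate 3 (24.8 and 8.75 CPM) lie on either side of the other libraries.

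Other germ cell genes were read in the same fits. Of 14 general germ cell and RNA-binding genes, 13 were lower with Nrf1 deletion at an unadjusted p under 0.05 (4.32% of all features) and the other, Tdrd9, was at -0.88. Their median was -0.99, beside -1.02 for the 10 genes. Mael, a piRNA pathway gene, was at -1.11 (SE 0.23, edgeR adjusted p = 0.236) and Ddx4, the germ cell RNA helicase, at -0.95 (SE 0.23, edgeR adjusted p = 0.341). Asz1 was near 0 in 2 Nrf1 cKO libraries (5.80, 0.190 and 0.155 CPM) against 9.18 and 10.7 CPM in WT.

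Of 14 further genes listed here under differentiation, 6 were lower at that level, again beside 4.32% of all features, and 0 higher. The 6 were Upp1, Crabp1, Sox3, Rhox13, Lin28a and Nanos3, from -0.95 to -2.10, and the median of the list was -0.85. Genes were put in this list by name, and the stage at which each is expressed was not measured here. Ccnd2, Rarg and Ythdc2, at 0.24, -0.18 and -0.06, did not pass. Among 12 genes of undifferentiated spermatogonia 2 were lower, Nanos2 at -1.23 and Zbtb16 at -0.72, and the median was -0.28, with Gfra1 at -0.44 and Etv5 at 0.11. Of 5 other intercellular bridge genes, most of which serve cytokinesis in all dividing cells, the germ cell gene Rbm44 was lower (-0.97) and the other 4 lay between -0.20 and 0.17. Sertoli markers went the other way, with 4 of 10 higher at an unadjusted p under 0.05 (3.55% of all features) and all 10 above 0, while 0 of 6 Leydig and 0 of 4 mast cell markers passed. No gene of these lists passed an adjusted p of 0.01.

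**Figure D5:**
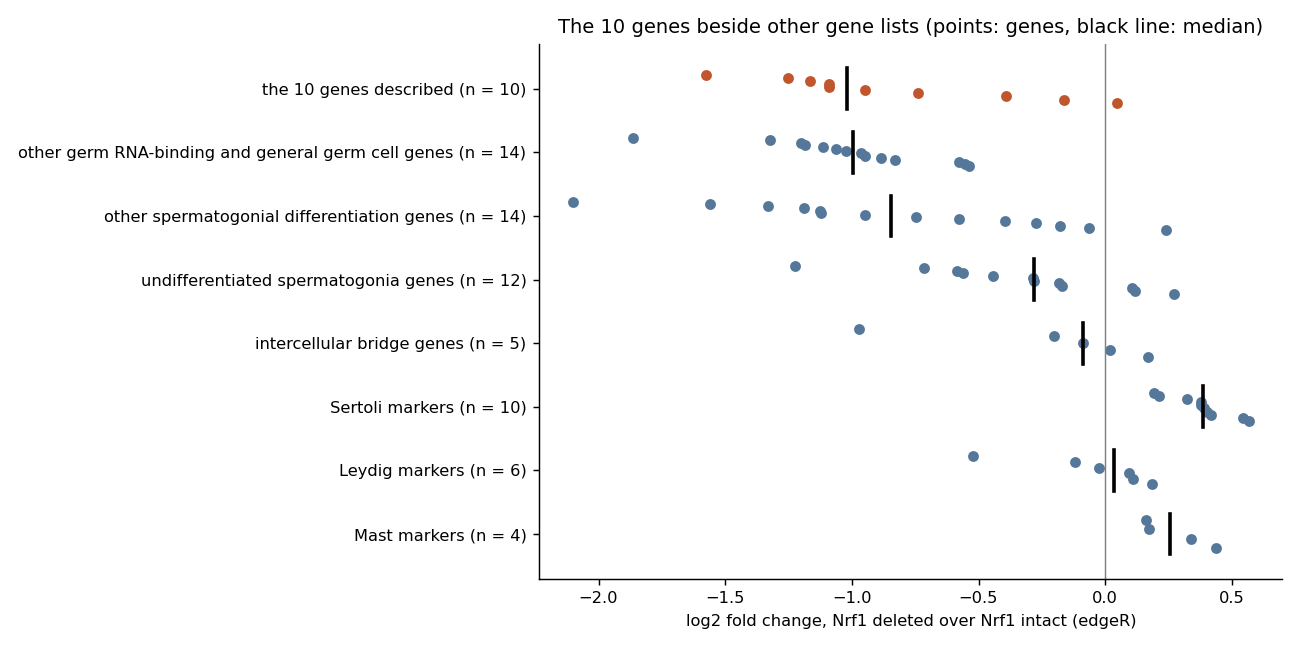
Log2 fold change with Nrf1 deletion over both Dnmt3C backgrounds (x axis, edgeR) for each gene of 8 lists (rows), with a black line at each median. The medians of the 10 genes (-1.02) and of the general germ cell genes (-0.99) are close, and that of the Sertoli markers is above 0.

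The genes whose centred profile was nearest to each of the 10 over the 11 libraries were then listed. Nearest to Dazl were Nxf2 (root mean square difference 0.12), Gm5128 and Rnf17, and nearest to Sohlh2 were Mov10l1 (0.17), 2010001K21Rik and Mael. Lin28b and Dcaf8l followed Sohlh2 for Sohlh1, and Tdrkh (0.14), Heatr1 and Depdc7 were nearest to Taf4b. Nearest to Tex14 were Gm4779 (0.18), Pnldc1 and Fam169a, and nearest to Dnd1 were Foxr1 (0.21), Epcam and 2610318N02Rik. Kit was nearest to Cstad (0.15) and Cdc42ep3, and Dmrt1 to Exoc8 (0.10), Cbarp and Cnnm4. Small differences are easier to reach for genes that vary little, as Dmrt1 did (SD 0.26 on the log2 scale) compared with Stra8 (SD 1.22) and Dmrtb1 (SD 1.39), whose nearest genes, Gm15128 (with Gm41 and Gm1141 next) and Gm15363 (with Gcgr and Npffr1 next), were at 0.30 and 0.51.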

How the data were processed

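Poly-A RNA of whole P5 testes was sequenced from 11 mouse samples, grouped by the genotype in their titles. The authors aligned reads with STAR 2.7.3a to GRCm38, counted genes and transposon subfamilies with TEtranscripts in multi-mapping, reverse-stranded mode, and deposited raw counts of each genotype pair beside columns of their own DESeq2 1.44.0 comparison, which were not used. A TPM table of transposon copies was not used. One replicate per genotype had been set aside by the authors for RNA quality.

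The pairwise tables were joined into 33188 genes and 1088 transposon subfamilies. Each comparison was tested with edgeR 4.0.16 in R 4.3.3 (filterByExpr, TMM, quasi-likelihood F test), fitted to the genotypes it involves. The Nrf1 and Dnmt3C effects over both backgrounds, the interaction and the test of any difference used all 11 libraries. All p-values were adjusted by Benjamini-Hochberg over all genes and subfamilies, with a threshold of 0.01. An unadjusted p under 0.05 is a description. CPM use TMM factors, and log2 CPM a prior count of 1. Standard errors were derived from each fold change and its F statistic. All 10 genes passed the filter. Replicates differed by more than sampling noise (chi-square per degree of freedom 17.6 to 61.8), and no source says whether each library is a separate litter, so p-values measure the spread between these samples. Counting intervals are not given, since reads are not marked molecules.

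Alternatives were DESeq2 1.42.0 and its size factors, fits with no filter, with each library left out, with a replicate block or with all 4 genotypes, a threshold of 0.05, and scaling to equal Dazl and Dnd1 counts. The edgeR fit was tested on simulated data in which 200 features had a log2 change of 2. It recovered 79.5% in Nrf1 cKO over WT (21104 features) and 96.5% for the Nrf1 effect over both backgrounds (22036 features). The largest change among the 10 genes was smaller, that of Dmrtb1 (-1.73 and -1.57). Recovery at the size of their changes was therefore not measured. The 10 genes, the gene lists and their roles were chosen with earlier results of these data known. Every one of the 10 is named, with its 3 nearest genes, except 1 that is not reported here. Other list genes named were chosen after their values were seen. Exon lengths come from GENCODE M21 (GRCm38).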

Additional observations from a re-analysis of the deposited data

How the results depend on the processing

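The count of the 10 genes past an adjusted p of 0.01 was 0 in every comparison in edgeR and stayed 0 except as follows. In Nrf1 cKO over WT it was 1 with DESeq2, 5 with no filter on low counts and 2 when scaled to Dazl and Dnd1 (where 60.0% of all features passed), and from 0 to 1 when a library was left out. With Nrf1 deletion over both backgrounds it was 2 with DESeq2 and 1 when scaled to Dazl and Dnd1 (60.7% of all features), and for any difference over the genotypes 1 with DESeq2's likelihood ratio test and 2 when so scaled (62.5%). In the simulation of Nrf1 cKO over WT, DESeq2 recovered more of the changes (88.5% against 79.5% for edgeR). It also made more false calls (12.4% of 202, against 1.85% of 162 for edgeR). The replicate number as a block gave 5 calls in Nrf1 cKO over WT (0.409% of all features), 9 genes lower at an unadjusted p under 0.05 in dKO over Dnmt3C KO in place of 3 (5.49% of all features in place of 4.08%), 5 higher in Dnmt3C KO over WT in place of 1 (3.62% in place of 2.56%; Stra8 at adjusted p = 0.0287 and Dmrtb1 at 0.0191 in edgeR), and a Dmrt1 value of -0.14 in Nrf1 cKO over WT. The numbers were not shown to pair the samples: same-numbered samples correlated from -0.23 to 0.22 over 15 pairs, 3 of them above 0.1. Replicate 3 of the titles is numbered 4 in Dnmt3C KO and 5 in dKO in the table headers, so the title numbers were reassigned there.

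With an Nrf1 cKO library left out, 6 to 8 genes were lower at an unadjusted p under 0.05 in Nrf1 cKO over WT (2.74 to 5.14% of all features). With any 1 library left out, the number lower was 0 to 8 in dKO over Dnmt3C KO (2.47 to 7.61%) and 5 to 8 with Nrf1 deletion (3.07 to 6%). Those higher with Dnmt3C loss were then 2 to 6 (1.18 to 2.43%). Without a filter the dKO over Dnmt3C KO count was 6 (3.67%). Scaled to Dazl and Dnd1 each of these 4 counts was 0. On that scaling 0.0563%, 0.077%, 0.0929% and 0.199% of all features passed in the same directions, and Dazl and Dnd1 were held level by construction.

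Scaling to Dazl and Dnd1 moved the median of all features by 1.67 in Nrf1 cKO over WT, 1.07 in dKO over Dnmt3C KO, 1.32 with Nrf1 deletion and -0.71 with Dnmt3C loss, and turned signs accordingly. In Nrf1 cKO over WT it gave Stra8 0.24, Sohlh1 0.21, Sohlh2 0.0146, Tex14 0.58 and Taf4b 1.15. In dKO over Dnmt3C KO it gave Kit 0.65, Sohlh1 0.0527, Tex14 0.39 and Taf4b 0.64, and in dKO over Nrf1 cKO Stra8 -0.16 and Tex14 -0.35. With Nrf1 deletion it gave Kit 1.15, Stra8 0.0622, Sohlh1 0.12, Tex14 0.47 and Taf4b 0.86, and with Dnmt3C loss Stra8 -0.0107 and Tex14 -0.26. When a library was left out, signs turned for Kit (-0.13 to 0.48) and Dmrt1 (-0.17 to 0.45) in Nrf1 cKO over WT, and for Kit (-0.30 to 0.00331) and Dmrt1 (-0.0667 to 0.14) with Nrf1 deletion. The cause of these reversals with 1 library left out was not tested.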
